A study of Mus musculus with 6 samples.

Results

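Neuronal RNA-binding splicing regulators are proteins that bind short sequence elements in pre-mRNA and mRNA of neurons. The group described here holds 10 genes, Rbfox1, Rbfox2, Rbfox3, Nova1, Nova2, Elavl2, Elavl3, Elavl4, Ptbp2 and Celf4. They were found by gene symbol, and all 10 were present among the 55357 genes counted and passed the filter on low counts. The data were 6 RNA-seq libraries of primary mouse cultures of cortical and hippocampal neurons, established from E18 C57BL/6N embryos and labelled wild type. In the shPla2g4e group (n = 3), a lentivirus expressed a short hairpin RNA against Pla2g4e, a calcium-dependent N-acyltransferase, and in the shCtrl group (n = 3) the lentivirus expressed a scrambled hairpin. Both viruses were given at DIV4, where DIV is the day in vitro, before the expression of Pla2g4e peaks, and the cultures were collected at DIV14. The dose was the least that halved the target transcript, the knockdown rested on 1 hairpin, sh2, and both groups carried virus, so that no untransduced culture was compared.

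These proteins set which exons a neuron joins and how long its transcripts last. RBFOX proteins bind UGCAUG, and an exon is commonly included when they bind downstream of it and skipped when they bind upstream. NOVA proteins bind clusters of YCAY and act by a similar positional rule on many exons of synaptic genes. The neuronal ELAVL (Hu) proteins bind U-rich and AU-rich elements, stabilise mRNAs and also affect splicing and polyadenylation. PTBP2 replaces PTBP1 when progenitors become neurons and represses exons of the mature neuron, and CELF proteins bind GU-rich elements, with CELF4 enriched in excitatory neurons and acting on mRNA stability and translation. The counts were summed over the exons of each gene, so they measure how much mRNA of a regulator was present and neither its isoforms nor the splicing of its targets.

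The transcripts of 2 members, Rbfox3 and Elavl2, fell in the shPla2g4e cultures, to 75.3% and 73.9% of their shCtrl means, and no member rose past the threshold. Celf4, Nova2 and Elavl3 were lower by 19.0% to 20.5% without passing the threshold, and fell when the replicate number was kept as a block. Rbfox1, Rbfox2, Nova1, Elavl4 and Ptbp2 passed in neither fit. Within the Rbfox and the neuronal Elavl families the genes had unequal values, with Rbfox3 lower beside Rbfox2 and Elavl2 and Elavl3 lower beside Elavl4. Expression is given as CPM, the reads of a gene scaled to the depth of its library with TMM factors. A change is the log2 fold change of shPla2g4e against shCtrl with its standard error (SE), and a gene was called at an adjusted p under 0.01 by edgeR's quasi-likelihood test with Benjamini-Hochberg adjustment over the 21876 genes tested. At this threshold 4% of all genes tested were called lower and 2.48% higher, and of the 10908 genes whose mean log2 CPM reached 3, a range that holds all 10 members, 7.61% were called lower. The member share, 2 of 10, rested on few genes and was not tested against these shares. Nothing in the labels says that the replicates were separate cultures, so that p-values measure the spread between these libraries.

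The hairpin itself is shown because it defines the treatment and because its seed also occurs in transcripts of some members. The sequence below is the 19-base target of sh2 in Pla2g4e, followed by the guide strand, its reverse complement. Capitals mark guide bases 2 to 8, the seed, and the stretch of target that pairs with it.
sh2 target: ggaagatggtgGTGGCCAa
sh2 guide: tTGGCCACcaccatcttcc

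The targeted gene was measured first. Pla2g4e had 38.0, 35.1 and 35.4 CPM in shCtrl replicates 1 to 3 and 21.8, 14.1 and 18.7 CPM in shPla2g4e replicates 1 to 3. The groups did not overlap, and the log2 fold change was −0.99 (SE 0.13, adjusted p = 0.000124 by edgeR's quasi-likelihood test with Benjamini-Hochberg adjustment). Libraries held 17054717 to 23570180 counted reads, so the member with the fewest reads in any library, Nova1, still had 763 there. Over all genes 876 were called lower and 543 higher (1973 and 1422 with the replicate block), a share of 61.7% lower, and this share was 43.3% when libraries were scaled by their total alone. That scaling placed the median change over all genes at 0.10 on the log2 scale, against 0.03 with TMM.

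The sample was checked against marker genes. Pan-neuronal markers summed to 5685 to 6159 CPM in shCtrl and 5288 to 5599 CPM in shPla2g4e libraries, and of the 10 listed 2 fell (Tubb3 and Map2) and 2 rose (Nefm and Nefl). Nefm and Nefl overlap each other on opposite strands, over 19.2% and 32.8% of their exon bases. The effect of this overlap on their counts was not tested. Astrocyte markers summed to 2826 to 3630 CPM in shCtrl and 1899 to 3082 CPM in shPla2g4e libraries, and 3 of 8 fell without the block (Aqp4, Gja1 and Slc1a2). The cultures therefore held glial as well as neuronal RNA. Markers of glutamatergic neurons summed to 1004 to 1299 CPM and 669 to 738 CPM, with 2 of 6 called lower and 1 higher. Most of the fall in this sum was Slc17a7. It had 842, 744 and 648 CPM in shCtrl replicates 1 to 3 and 312, 290 and 297 CPM in shPla2g4e replicates 1 to 3. Neurod6 was the other marker called lower (log2 fold change −0.47), and Slc17a6 was called higher (0.91). Markers of GABAergic neurons summed to 712 to 761 CPM and 592 to 658 CPM, with 1 of 6 called lower. Oligodendrocyte-lineage markers, at 516 to 585 CPM and 536 to 640 CPM, had no call among 8 without the block. Of the dividing-cell and progenitor markers, at 149 to 184 CPM and 130 to 176 CPM, 1 of 6 was called, lower. Microglial markers were at 2.16 to 4.53 CPM and 2.13 to 3.10 CPM, with Tmem119 and Itgam below the filter, and vascular markers at 20.5 to 24.3 CPM and 18.1 to 31.0 CPM, with Cldn5 below it, and neither list had a call without the block. With the replicate number as a block, 6 of the 8 astrocyte markers were called lower, Gfap, Aldoc and Slc1a3 with the 3 above, and S100b was called higher. In that fit 2 pan-neuronal markers were called lower and 3 higher, 3 glutamatergic lower and 2 higher, 2 GABAergic lower, 2 dividing-cell and progenitor markers lower, Olig2 lower, Col1a1 higher, and no microglial marker. The part of these markers in the changes of the members was not tested. In bulk RNA, fewer cells of a type and less RNA per cell cannot be told apart.

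The Rbfox family was expressed in full. Rbfox3 encodes NeuN, the nuclear antigen used to count post-mitotic neurons, and lies on chromosome 11 from 118380588 to 118802423 on the minus strand (GRCm39, as are all gene positions here). It had 205, 184 and 169 CPM in shCtrl replicates 1 to 3 and 147, 138 and 135 CPM in shPla2g4e replicates 1 to 3. Each shPla2g4e library was below each shCtrl library, and the groups' means were 186 ± 18.4 and 140 ± 6.20 CPM (SD, n = 3). The log2 fold change was −0.41 (SE 0.086, 95% interval −0.59 to −0.23), with an adjusted p of 0.00477 in edgeR's quasi-likelihood test. The call was kept in all 10 other settings of scaling, filter, tool and block, and in 1 of 6 fits without 1 library, that without shCtrl replicate 3. Without 1 library the log2 fold change ranged from −0.47 to −0.33 and the adjusted p from 0.0018 to 0.0271.

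Rbfox1 and Rbfox2 did not pass the test. Rbfox1, the A2BP1 gene linked to epilepsy and autism, spans 1526 kb of chromosome 16 (5703219 to 7229390, plus strand). It had 153, 140 and 125 CPM in shCtrl replicates 1 to 3 and 135, 129 and 121 CPM in shPla2g4e replicates 1 to 3. The ranges overlapped, and its log2 fold change of −0.12 had a 95% interval of −0.30 to 0.07. Rbfox2 (chromosome 15, 76963190 to 77191204, minus strand) is expressed in neurons and in many tissues outside the brain. It had 451, 424 and 378 CPM in shCtrl replicates 1 to 3 and 432, 486 and 409 CPM in shPla2g4e replicates 1 to 3, with a log2 fold change of 0.08 and an interval of −0.11 to 0.28.

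**Figure D1:**
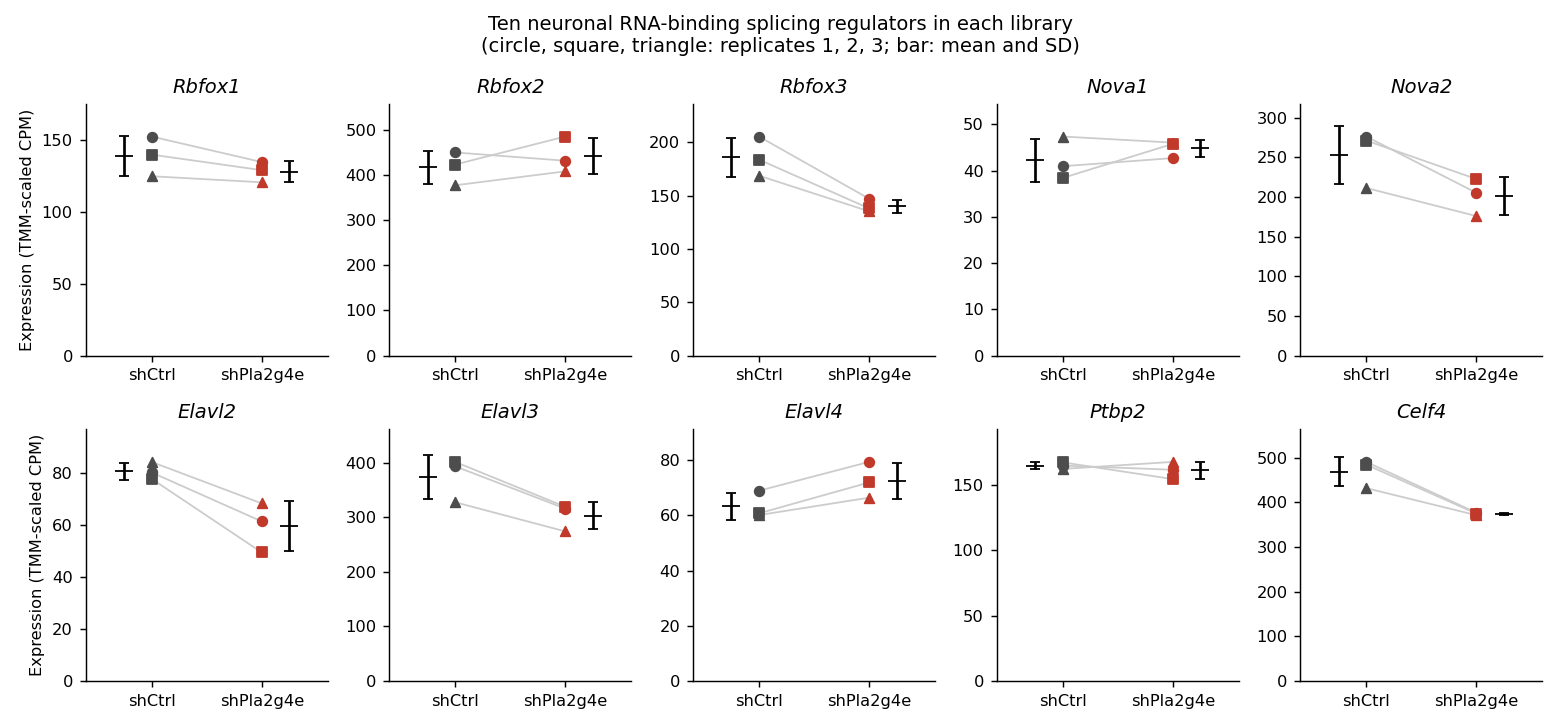
Expression of the 10 members in each library, in TMM-scaled CPM on axes that start at 0, for shCtrl (grey) and shPla2g4e (red); lines join libraries of the same replicate number, and bars give the mean and SD of 3 libraries. The shPla2g4e libraries lie below all shCtrl libraries for Rbfox3, Elavl2, Elavl3 and Celf4, and the groups overlap for the other members.

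The Nova genes differed in level as well as in change. Nova2 (chromosome 7, 18659813 to 18699244, plus strand), which is expressed widely in the cortex and also acts on axon guidance transcripts, had 276, 271 and 211 CPM in shCtrl replicates 1 to 3. In shPla2g4e replicates 1 to 3 it had 205, 223 and 176 CPM. The groups overlapped, because shCtrl replicate 3 lay within the range of the shPla2g4e libraries, while within each replicate number the shPla2g4e library was the lower one. Its log2 fold change was −0.33 (SE 0.11) with an adjusted p of 0.0562, and the adjusted p was 3.6e-05 with the replicate block and 0.00655 without shCtrl replicate 3, all by edgeR's quasi-likelihood test. Of the 50-base stretches of its annotated transcripts 30.8% also occur, on either strand, in transcripts of other genes. How reads that map to more than 1 place were counted is not recorded, so that its level is uncertain. Nova1 (chromosome 12, 46741300 to 46865712, minus strand), the hindbrain and spinal cord paralogue, had 40.9, 38.4 and 47.4 CPM in shCtrl replicates 1 to 3 and 42.7, 45.8 and 46.05 CPM in shPla2g4e replicates 1 to 3. Its log2 fold change was 0.08, with an interval of −0.12 to 0.29.

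The neuronal Elavl genes did not share 1 sign. Elavl2 (HuB, chromosome 4, 91139000 to 91289022, minus strand) had 80.0, 77.6 and 84.1 CPM in shCtrl replicates 1 to 3 and 61.2, 49.3 and 68.2 CPM in shPla2g4e replicates 1 to 3. The groups did not overlap, and their means were 80.6 ± 3.28 and 59.6 ± 9.52 CPM (SD, n = 3). The log2 fold change of −0.44 (SE 0.10, 95% interval −0.66 to −0.22) had an adjusted p of 0.00992 by edgeR's quasi-likelihood test, just inside the threshold. The call was lost with upper quartile scaling (adjusted p = 0.0175 in edgeR), with library size alone (0.0271 in edgeR), with both stricter filters and in 5 of 6 fits without 1 library, where it was kept only without shPla2g4e replicate 3. The log2 fold change stayed negative in all 16 alternatives, from −0.54 to −0.32.

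Elavl3 (HuC, chromosome 9, 21926301 to 21963319, minus strand), a marker of post-mitotic neurons, had 394, 402 and 328 CPM in shCtrl replicates 1 to 3. In shPla2g4e replicates 1 to 3 it had 316, 319 and 274 CPM, all below the lowest shCtrl library. For Elavl3 the log2 fold change was −0.30 (SE 0.094), with an adjusted p of 0.0432 in edgeR's quasi-likelihood test, 8.2e-05 with the replicate block and 0.00677 without shCtrl replicate 3. Elavl4 (HuD, chromosome 4, 110060919 to 110209106, minus strand), which binds the Gap43 mRNA and promotes neurite growth, had 68.9, 60.7 and 60.1 CPM in shCtrl replicates 1 to 3 and 79.3, 71.9 and 66.4 CPM in shPla2g4e replicates 1 to 3. The ranges overlapped, each shPla2g4e library was above the shCtrl library of its number, and the log2 fold change of 0.20 (SE 0.090) had an adjusted p of 0.175, or 0.0421 with the replicate block, in edgeR's quasi-likelihood test.

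Celf4 was the member with the highest CPM in the shCtrl libraries. It had 490, 484 and 432 CPM in shCtrl replicates 1 to 3 and 376, 375 and 371 CPM in shPla2g4e replicates 1 to 3. The 3 shPla2g4e libraries lay within 6 CPM of each other and below all shCtrl libraries. Its log2 fold change was −0.33 (SE 0.079, 95% interval −0.49 to −0.16) with an adjusted p of 0.0119 in edgeR's quasi-likelihood test, just outside the threshold, and 2.46e-05 with the replicate block. It was called by limma after voom (adjusted p = 0.00679) and by DESeq2 (adjusted p = 0.00036). Ptbp2 (chromosome 3, 119512391 to 119578115, minus strand) had the smallest change of the members, with 165, 167 and 162 CPM in shCtrl replicates 1 to 3 and 162, 154 and 168 CPM in shPla2g4e replicates 1 to 3. Its log2 fold change was −0.03, with an interval of −0.19 to 0.13, and turned positive with upper quartile scaling and with library size alone.

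Counted over the members, 7 had a negative and 3 a positive log2 fold change, where 10162 of all 21876 genes tested were negative. The median was −0.21 for the members and 0.03 over all genes tested. With the replicate number as a block 5 were called lower and none higher, where 9.02% of all genes were called lower and 6.5% higher. For 4 members, all lower, no library of one group reached the range of the other, where 14.6% of all genes tested did not overlap in this direction and 15.5% in the other. Unadjusted p-values of edgeR's quasi-likelihood test were under 0.05 for 6 members, 5 lower and Elavl4 higher, where 25.7% of all genes tested were under it in either direction. shCtrl replicate 3 was the lowest of its group for Rbfox1, Rbfox2, Rbfox3, Nova2, Elavl3, Elavl4, Ptbp2 and Celf4, and without it 4 members were called, Rbfox3, Nova2, Elavl3 and Celf4.

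The genes that complete the families gave further values for comparison. Celf5, which is expressed mainly in brain, had 300, 302 and 287 CPM in shCtrl replicates 1 to 3 and 218, 203 and 237 CPM in shPla2g4e replicates 1 to 3. Its log2 fold change was −0.43 (SE 0.080, adjusted p = 0.00183 by edgeR's quasi-likelihood test), and of the 8 remaining family genes it alone was called, lower. A gene on the opposite strand overlaps 8.09% of its exon bases, and the effect of this overlap on its counts was not tested. Celf2, the most abundant gene of the family by CPM, had a log2 fold change of −0.30 (adjusted p = 0.0264, or 8.31e-05 with the block, in edgeR's quasi-likelihood test).

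Celf3 and Celf6 had positive log2 fold changes. Celf3 had 250, 225 and 248 CPM in shCtrl replicates 1 to 3 and 272, 265 and 335 CPM in shPla2g4e replicates 1 to 3, and its log2 fold change was 0.27 (adjusted p = 0.0745, or 0.00105 with the block, in edgeR's quasi-likelihood test). Celf6 had 57.6, 53.4 and 48.04 CPM in shCtrl and 70.1, 62.9 and 63.5 CPM in shPla2g4e replicates 1 to 3, and its log2 fold change was 0.31 (adjusted p = 0.0337, or 0.00137 with the block, in edgeR's quasi-likelihood test). For both genes all shPla2g4e libraries were above all shCtrl libraries. The broadly expressed Elavl1 (HuR), Ptbp1, Ptbp3 and Celf1 had log2 fold changes of −0.20, −0.18, 0.07 and −0.10 and passed in neither fit. Opposite-strand genes overlap 20.7% of the exon bases of Ptbp1, which leaves its value uncertain. Of the 8 genes 5 were lower and 3 higher, with a median of −0.14.

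**Figure D2:**
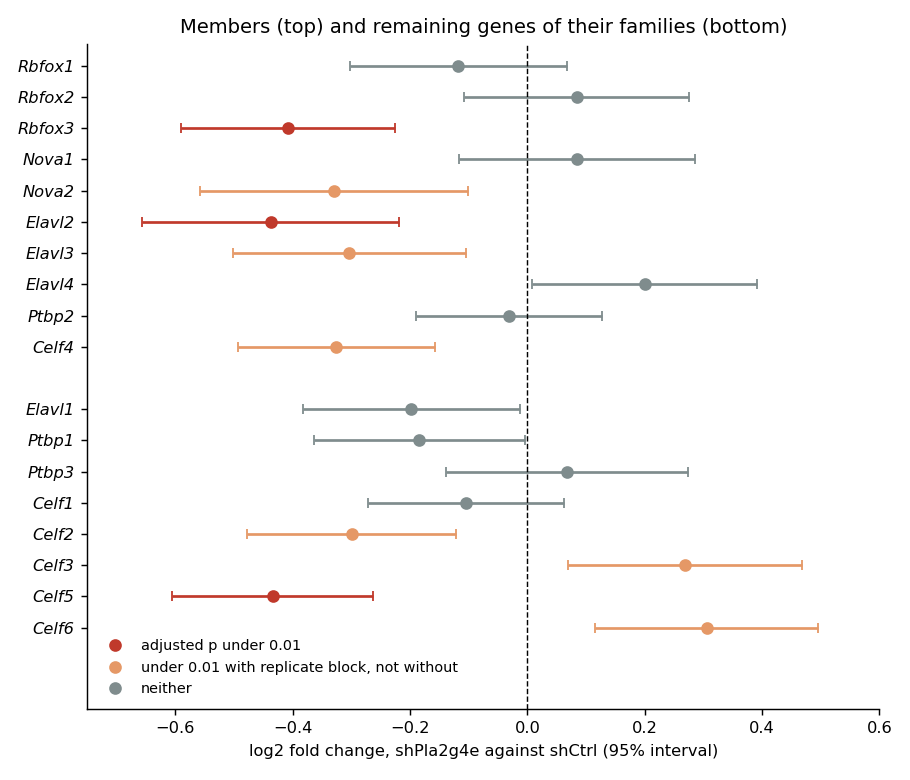
Log2 fold change of shPla2g4e against shCtrl with its 95% interval for the 10 members (top) and the 8 remaining genes of their families (bottom), coloured by the adjusted p of edgeR's quasi-likelihood test. Rbfox3, Elavl2 and Celf5 are past 0.01 without the replicate block, and of these 2 fits Nova2, Elavl3, Celf4, Celf2, Celf3 and Celf6 are past it in that with the block alone.

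Ratios between genes of a family were computed within each library, which removes the scaling between libraries. The log2 ratio of Rbfox3 to Rbfox1 was 0.43, 0.39 and 0.43 in shCtrl replicates 1 to 3 and 0.13, 0.09 and 0.16 in shPla2g4e replicates 1 to 3. The difference of −0.29 (SE 0.024) was large beside the spread, since the SDs were 0.022 and 0.035. The ratio of Rbfox3 to Rbfox2 was lower by a log2 difference of −0.49 (SE 0.084), and that of Rbfox1 to Rbfox2 by −0.20 (SE 0.069). In these 3 ratios no shPla2g4e library reached the lowest shCtrl library.

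The neuronal Elavl genes showed a like separation from Elavl4. The log2 ratio of Elavl3 to Elavl4 was 2.51, 2.73 and 2.45 in shCtrl replicates 1 to 3 and 1.99, 2.15 and 2.05 in shPla2g4e replicates 1 to 3, a difference of −0.50 (SE 0.096). That of Elavl2 to Elavl4 differed by −0.65 (SE 0.19), also without overlap. The ratio of Elavl2 to Elavl3 differed by −0.15 (SE 0.23) and overlapped, and so did Nova1 to Nova2, at 0.42 (SE 0.24), and Ptbp2 to Ptbp1, at 0.15 (SE 0.077). Within replicate numbers 1 to 3, however, the ratio of Nova1 to Nova2 differed by 0.49, 0.54 and 0.22 (SE of the paired mean 0.098). The paired differences of Elavl2 to Elavl3 were −0.07, −0.32 and −0.05 (SE 0.088), and those of Ptbp2 to Ptbp1 were 0.23, −0.05 and 0.28 (SE 0.10). In 7 of the 8 ratios the 3 paired differences had 1 sign, where the exact sign-flip permutation p was 0.25, the smallest that 3 pairs allow. Of the 8 ratios 5 had no overlap, where 14.6% of single genes did not overlap downward and 15.5% upward. No such share was computed for other pairs of genes, and ratios within a family share genes. For these 5 ratios the exact two-sided permutation p was 0.10, the smallest that 3 against 3 libraries allow. It was 0.16 after Benjamini-Hochberg adjustment over the 8, so that no ratio could pass 0.05.

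**Figure D3:**
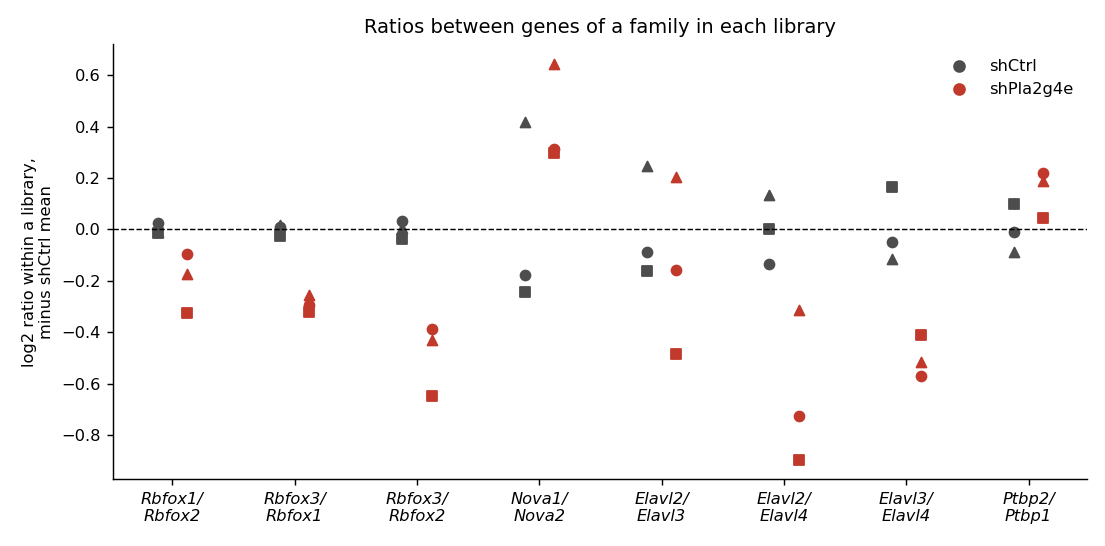
Log2 ratio of CPM between genes of a family in each library, with the shCtrl mean of the ratio set to 0, for shCtrl (grey) and shPla2g4e (red); circles, squares and triangles are replicates 1, 2 and 3. The groups lie apart for the 3 Rbfox ratios and for Elavl2 and Elavl3 against Elavl4, and overlap for Nova1 to Nova2, Elavl2 to Elavl3 and Ptbp2 to Ptbp1.

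Levels between genes were compared per length, as CPM per kb of annotated exon. In shCtrl libraries Celf4 (54.6 ± 3.76 CPM per kb, SD, n = 3), Elavl3 (54.3 ± 5.89) and Rbfox2 (51.3 ± 4.53) were highest, and neighbours in this order overlapped. Rbfox3 (31.9 ± 3.17), Rbfox1 (31.6 ± 3.15) and Nova2 (30.2 ± 4.31) followed, apart from Rbfox2 and again overlapping one another. Ptbp2 (17.96 ± 0.275), Elavl4 (11.7 ± 0.913), Elavl2 (9.69 ± 0.394) and Nova1 (4.83 ± 0.529) were each apart from the next. In shPla2g4e libraries Rbfox2 stood first at 54.3 ± 4.86 CPM per kb, apart from Elavl3 (44.0 ± 3.65), which overlapped Celf4 (43.6 ± 0.324). Rbfox1 (29.1 ± 1.61) was then apart from Rbfox3 (24.1 ± 1.07), which overlapped Nova2 (24.03 ± 2.82), and the 4 lowest genes kept their order. Exon length counts all annotated exons of a gene and not the isoform in use.

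**Figure D4:**
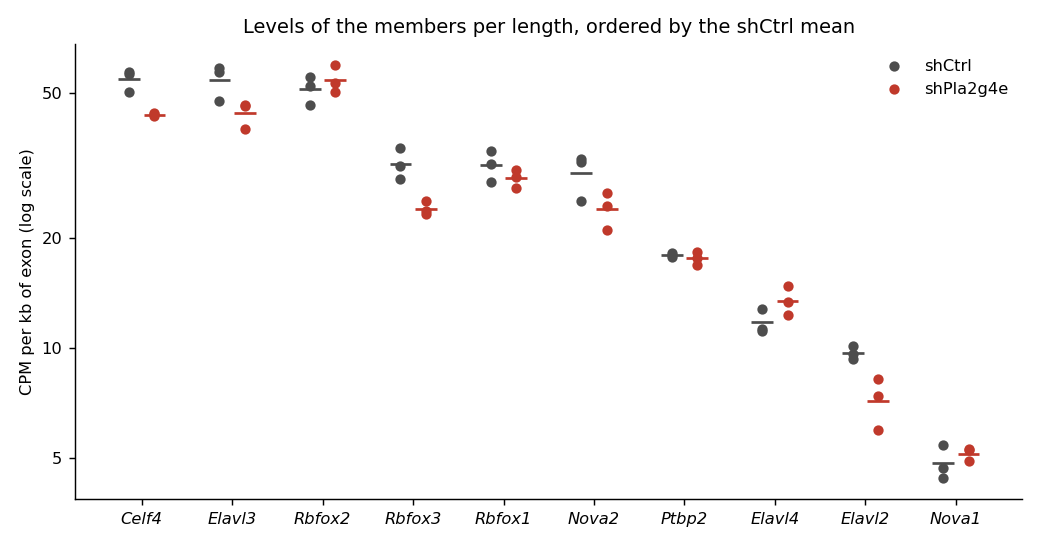
CPM per kb of annotated exon of the 10 members on a log axis, ordered by the shCtrl mean; points are libraries, horizontal lines are means of 3, grey is shCtrl and red is shPla2g4e. Celf4, Elavl3 and Rbfox2 are highest and Nova1 is lowest in both groups.

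Within the Rbfox family, Rbfox2 made up 44.7 ± 0.467% of the summed CPM per kb in shCtrl and 50.5 ± 2.20% in shPla2g4e libraries (SD, n = 3), Rbfox3 27.8 ± 0.418% and 22.4 ± 1.21%, and Rbfox1 27.5 ± 0.160% and 27.1 ± 1.04%. The summed CPM per kb of the family was 115 ± 10.8 and 108 ± 6.08, a difference smaller than the SD of the shCtrl libraries, although within each replicate number the shPla2g4e library was the lower one (125 and 109, 115 and 113, and 104 and 101). Among the neuronal Elavl genes the share of Elavl4 was 15.5 ± 1.08% and 20.8 ± 0.746%, that of Elavl3 71.6 ± 2.40% and 68.0 ± 2.37%, and that of Elavl2 12.9 ± 1.58% and 11.2 ± 2.29%. Their sum was 75.8 ± 6.01 in shCtrl and 64.6 ± 3.91 CPM per kb in shPla2g4e libraries. Among the 6 Celf genes, Celf4 made up 24.6 ± 0.822% and 21.4 ± 1.24%, Celf5 19.9 ± 0.453% and 16.0 ± 0.376%, Celf3 19.9 ± 1.45% and 25.9 ± 2.18%, and Celf6 6.58 ± 0.320% and 8.86 ± 0.668%.

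Other genes of the splicing machinery were compared by list. Of 18 tested genes for other sequence-specific splicing regulators, 1 passed the test downward and 1 upward, their median change was −0.02 on the log2 scale, and Raver1 and Esrp1 stayed below the filter. With the replicate block 4 of the 18 were called lower and 1 was called higher. Khdrbs1 (Sam68), a signal-responsive regulator, was lower, at −0.34 on the log2 scale (adjusted p = 0.00919 in edgeR's quasi-likelihood test). Rbm20, known from the splicing of titin in heart, was higher at 0.87 (adjusted p = 0.00391 in edgeR's quasi-likelihood test) from a mean of 5.64 CPM, under the level range of the members. Of the microexon regulators, both named after their values were seen, Srrm4 had a log2 fold change of −0.02 and Srrm3 one of −0.27 (adjusted p = 0.0481, or 0.00525 with the block, in edgeR's quasi-likelihood test).

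Among the 25 hnRNP genes, whose proteins coat nascent RNA and often repress exons, 19 were lower and 6 higher, where 10162 of all 21876 genes were lower. Of the 25, 3 were called lower and none higher, and the median was −0.09. The called genes were Hnrnpul2 (log2 fold change −0.67, adjusted p = 0.000139), Pcbp4 (−0.46, adjusted p = 0.000955) and Hnrnpul1 (−0.38, adjusted p = 0.00461), all by edgeR's quasi-likelihood test. With the replicate block 9 of the 25 were called lower and none higher. None of the 13 SR and Tra2 genes, whose products mostly promote exon inclusion, was called by edgeR, limma or DESeq2 at 0.01, 4 had an unadjusted p under 0.05 in edgeR, beside the 25.7% of all genes, and Srsf3 was called lower with the block. Of 34 core spliceosome genes, 1 was called, Sf3a1 of the U2 particle (log2 fold change −0.43, adjusted p = 0.00361 in edgeR's quasi-likelihood test), and the median was 0.04. With the block 4 of these 34 were called lower and 1 was called higher.

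**Figure D5:**
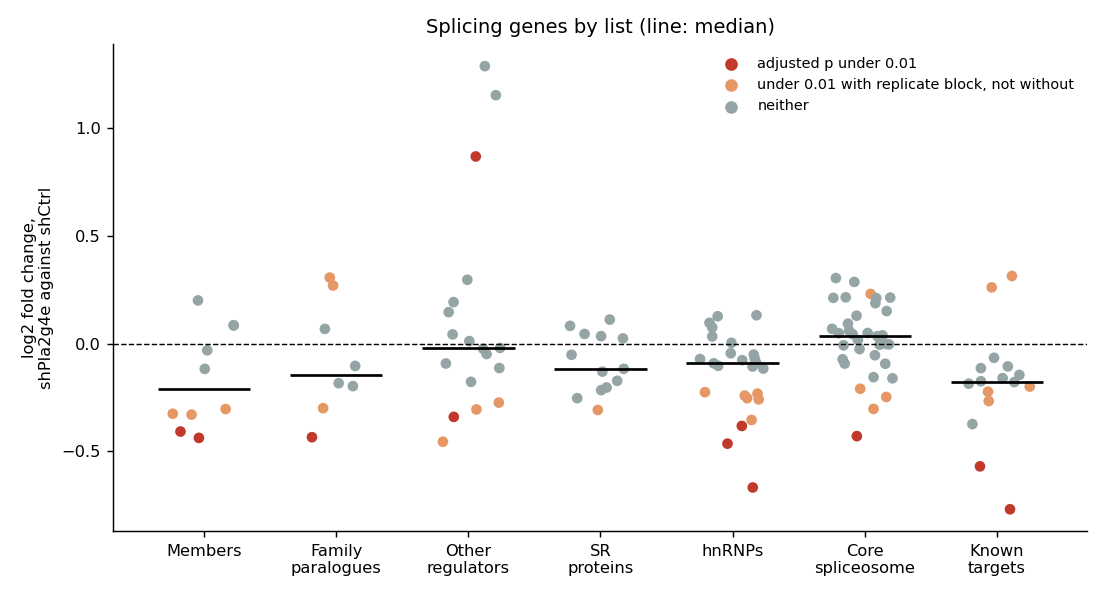
Log2 fold change of shPla2g4e against shCtrl for each tested gene of 7 lists (points, spread sideways for sight), with the median of each list as a line. The medians run from −0.21 for the members to 0.04 for the core spliceosome.

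Transcripts that the members are known to bind or splice were read at gene level. Of 16 such genes 14 were lower and 2 higher, where 10162 of all 21876 genes tested were lower. Among the 16, 2 were called lower, beside 4% of all genes, and the median was −0.18. The count was not tested against these shares. Dab1, whose exons are spliced by NOVA2 and which carries the Reelin signal, had 135, 131 and 131 CPM in shCtrl replicates 1 to 3 and 74.2, 75.1 and 83.8 CPM in shPla2g4e replicates 1 to 3. It fell, with a log2 change of −0.77 (SE 0.079) at an adjusted p of 1.17e-05 in edgeR's quasi-likelihood test. Src, whose neuronal N1 exon is repressed by PTB proteins, fell to 64.5 ± 2.29 CPM from 95.7 ± 8.35 CPM (SD, n = 3), a log2 change of −0.57 (SE 0.085, adjusted p = 0.000325 by edgeR's quasi-likelihood test). With the replicate block 5 of the 16 were called lower and 2, Bdnf and Snap25, were called higher. Whether any exon of these genes was used differently was not measured by counts over whole genes.

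The 7-base site that pairs with guide bases 2 to 8, GTGGCCA, was searched on the sense strand of the longest coding transcript of each gene (GENCODE vM21, GRCm38). It occurred in the 3′ UTR of 3 of the 10 members and in 13.4% of 15656 tested genes with a 3′ UTR. Rbfox3, the called member with a site, held 1, Rbfox2 held 2 and Nova2 held 3. Over all coding transcripts, a 3′ UTR site was in 3 of 8 of Rbfox3, 3 of 12 of Rbfox2 and 2 of 2 of Nova2. Which of these transcripts the cultures used was not measured. The coding sequence of Nova1 held 1 and that of Nova2 held 2, and 25.3% of 15816 tested coding genes held such a site. The 3′ UTR of Elavl2 held none, and neither did those of Elavl3 and Celf4. The sites are shown for Rbfox3, at chr11:118491940-118491946 on the minus strand, and for the first site of Rbfox2, at chr15:77083163-77083169 on the minus strand, and of Nova2, at chr7:18959716-18959722 on the plus strand (GRCm38), with 11 bases on either side and the site in capitals.
Rbfox3: gcaatactgccGTGGCCAccctggctctg
Rbfox2: atgaatagtcaGTGGCCAgatttcccccc
Nova2: ggtgttggacaGTGGCCAgtccctaagat
The longest run of bases that any member transcript shared with the sh2 target was 9. Of the 8 remaining family genes Elavl1, Celf2 and Celf5 each held 1 site in the 3′ UTR. Such a site was in 1 of 2, 4 of 18 and 2 of 5 of their coding transcripts. Of the 6 family genes with such a site 5 had a negative log2 fold change, Rbfox3 (−0.41), Nova2 (−0.33), Celf5 (−0.43), Celf2 (−0.30) and Elavl1 (−0.20), and Rbfox2 had 0.08. Of the 12 without one 7 were negative, among them Elavl2 (−0.44), Celf4 (−0.33) and Elavl3 (−0.30). The effect of the sites was not tested, since the design holds no other hairpin.

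The gene most alike to each member over the 6 libraries was found by Pearson's r of log2 CPM among 10898 other genes. It was Cds2 for Rbfox3 (r = 0.998), Stmn3 for Elavl2 (r = 0.998), Tspyl4 for Celf4 (r = 0.999), Dpysl3 for Nova2 (r = 0.997) and Hcfc1r1 for Elavl3 (r = 0.998). For the members that passed in neither fit it was Gprasp1 for Rbfox1 (r = 0.997), Kctd13 for Rbfox2 (r = 0.995), Tyw5 for Nova1 (r = 0.996), Glod4 for Elavl4 (r = 0.995) and Nudt9 for Ptbp2 (r = 0.984). With 6 libraries in 2 groups many genes reach such values, and from 11 genes for Nova1 to 616 for Celf4 had an r above 0.95. Among the members themselves r was highest between Nova2 and Elavl3 (0.984) and between Rbfox3 and Celf4 (0.974), and it was lowest between Nova1 and Elavl3 (−0.803) and between Nova1 and Rbfox1 (−0.798). All these values share the same 6 libraries and are given as descriptions.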

How the data were processed

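Poly(A) RNA of 6 libraries was sequenced from TruSeq Stranded libraries. For the deposited files the authors ran STAR 2.7.0d for alignment, counted reads on exons with featureCounts 1.6.0 and deposited raw counts per gene. The files carry GENCODE release 28 and GRCm39, whereas the methods name mm10 and Gencode M18. The record of the counting holds no option for strand, read pairs or multi-mapping reads. Symbols and sequences came from GENCODE vM21 (GRCm38), which matched 52081 of 55357 genes. Genes reaching 6 reads in any library were tested with edgeR 4.0.16 in R 4.3.3 (TMM, glmQLFit, glmQLFTest, Benjamini-Hochberg). limma 3.58.1 after voom, DESeq2 1.42.0 and the other alternatives are given in the closing section. Scripts were tested on simulated data. The members and gene lists were chosen with earlier results of these data known. All members, the remaining genes of their families and Pla2g4e were named, with up to 3 called genes of smallest adjusted p in each other list of splicing genes and of targets; other genes, marker genes included, were named after their values were seen. Deviations from group means over 10908 genes gave r of 0.392, 0.189 and 0.461 where the labels give libraries 1 replicate number, and of −0.393 to 0.108 elsewhere, which meets the criterion for pairs (every r over 0.1). The methods name no block and none was used in the tests unless stated; blocked values stand beside results whose call they change. The chi-square per gene was 6.98 to 19.3 within groups, so no library was a duplicate.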

Additional observations from a re-analysis of the deposited data

How the results depend on the processing

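The count of genes called, 1419, was 2349 without a filter, 3395 with the replicate block, 2813 at an adjusted p under 0.05, and 695 (without shCtrl replicate 2) to 1613 (without shPla2g4e replicate 3) with 1 library left out. The block turned no direction of a member. The count of members called, 2, was 1 with upper quartile scaling, library size alone, at least 10 reads in every library and filterByExpr, 5 without a filter and with the replicate block, 4 at 0.05, and 0 to 4 with 1 library left out. Remaining family genes, 1 called, gave 2 with DESeq2, library size alone and no filter, 4 with the replicate block, 3 at 0.05, and 0 to 2 with 1 library left out. Other regulators, 2 called, gave 1 with upper quartile scaling, library size alone and at least 10 reads, 4 without a filter and at 0.05, 5 with the replicate block, and 0 to 2 with 1 library left out. SR genes gave 1 without a filter, with the block and at 0.05, against 0. hnRNP genes, 3 called, gave 9 with the replicate block and 5 at 0.05. Core spliceosome genes, 1 called, gave 2 with DESeq2 and without a filter, 5 with the replicate block, 3 at 0.05, and 0 to 1 with 1 library left out. Known targets, 2 called, gave 4 with library size alone and at 0.05, and 7 with the replicate block. The log2 fold change of Ptbp2 was 0.0036 with upper quartile scaling and 0.043 with library size alone. The log2 ratio of Elavl2 to Elavl3, −0.15, ranged from −0.32 (without shPla2g4e replicate 3) to 0.023 (without shPla2g4e replicate 2) with 1 library left out. DESeq2 gave no adjusted p for 5514 genes. The causes of these shifts were not tested. With 3 libraries a group, a log2 fold change near 0.3 had an SE near 0.09, and the calls of 5 members turned on single choices. Rbfox3 and Elavl2 each kept theirs in 1 of 6 fits with 1 library left out, and Elavl2 lost it with both stricter filters, upper quartile scaling and library size alone. Celf4, Nova2 and Elavl3 gained one without shCtrl replicate 3, without a filter and with the block, and Celf4 also with limma and DESeq2.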
